A study of Homo sapiens with 3 samples.

Results

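The JNK cascade was examined at the transcript level in A549, a cell line from a human lung adenocarcinoma. The 10 genes were the 3 JNK kinases MAPK8, MAPK9 and MAPK10, the MAP2K kinases MAP2K4 and MAP2K7, the MAP3K kinases MAP3K1, MAP3K5 and MAP3K7, and the scaffolds MAPK8IP1 and MAPK8IP3. They were chosen by name, with earlier results of these data known. Every probe whose RefSeq transcript belonged to one of them was taken. This gave 16 of the 58191 probes and 10 of the 22435 named genes on the arrays. RNA came from cells kept for 48 h with 0.1% DMSO as the control, with cordycepin (3′-deoxyadenosine, an adenosine analog) at 60 μg/mL, or with cordyceps at 100 μg/mL, whose preparation the labels do not describe. All cells grew in medium with fetal bovine serum that also held nicotinamide, troglitazone and zinc sulfate. The paper's methods name DMEM with serum and penicillin-streptomycin and do not mention these additions. Each condition was measured on 1 Agilent array (n = 1), all 3 on 1 slide, so the ratios below have no replicate error and no p-value.

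JNK is a mitogen-activated protein kinase that stress and cytokine signals switch on through a chain of kinases. A MAP3K phosphorylates MAP2K4 or MAP2K7, these phosphorylate JNK, and active JNK phosphorylates JUN and other proteins, with effects on apoptosis that depend on strength and duration. Scaffold proteins of the JIP family hold the kinases of one chain together. The arrays measured transcripts, and neither protein level nor phosphorylation was measured in these files.

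None of the 9 genes that could be measured differed by 2-fold from the control array with cordycepin or with cordyceps. Of the 16 probes, 14 probes of 9 genes were well above background on all 3 arrays, and both MAPK10 probes were not well above background on any. With cordycepin the log2 ratios of the 14 probes ran from -0.37 for MAP2K7 to 0.61 for 1 of the MAPK9 probes, and with cordyceps from -0.50 for MAP2K7 to 0.34 for 1 of the MAPK8 probes. A ratio was called at 2-fold or more, and 0 of the 14 probes were called in either comparison. Over all probes well above background on both arrays, 7.05% were called with cordycepin and 6.10% with cordyceps, and the count of 0 is read against these shares. At 1.5-fold, 1 of the 14 probes passed with cordycepin, a MAPK9 probe, and 0 with cordyceps, beside 22.7% and 20.7% of all probes. The median size of the log2 ratio, regardless of sign, was 0.12 over the 14 probes with cordycepin and 0.30 over all probes. With cordyceps it was 0.16 over the 14 probes and 0.29 over all probes. These are descriptions of the arrays and were not tested.

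Ratios are differences in log2 signal after each array was reduced by its 75th percentile, which stood at a signal of 260.1 in control cells, 224 with cordycepin and 260.2 with cordyceps. The median log2 ratio of all probes measured on both arrays was -0.03 with cordycepin and -0.12 with cordyceps. Only technical errors were available. The scanner software gives an error for each spot from a fixed model, and carried into the log2 ratios of the 14 probes it came to between 0.20 and 0.27 with cordycepin and between 0.20 and 0.30 with cordyceps. Over 3356 genes with at least 2 measured probes, the robust SD of the log2 ratio of a single probe, from the disagreement of the 2 brightest probes, was 0.25 with cordycepin and 0.20 with cordyceps. It was larger where the dimmer probe had a control signal of at most 128, at 0.35 and 0.32. It was smaller where that signal was over 1024, at 0.15 and 0.13. Signals of different probes depend on the probe and are not compared as levels of RNA, and the brightest probe serves only to choose which one stands for a gene.

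A corner of each array, where the row lies beyond 62.5% and the column beyond 50% of the highest value, gave many calls on the cordyceps array. A probe with any spot there counts as a corner probe. In that corner 14.1% of the probes measured on at least 1 array were called higher with cordyceps, compared with 2.80% of the other probes. With cordycepin 364 of 5919 corner probes and 1769 of 24245 others were called higher. The corner holds 4 of the 16 probes, namely 1 of MAPK9, the single probe of MAP2K7, 1 of MAP3K5 and the single probe of MAPK8IP1. On the cordyceps array 11.2% of the spots in the corner had a local background that the scanner software marked as outlying. Of the 48 member spots over the 3 arrays, 0 were so marked and 0 were marked as outlying spots. Only 4 of these spots lay in the corner of the cordyceps array, too few for the 0 to clear them of the artefact. All 4 corner probes of the cascade had cordyceps ratios below 2-fold.

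The cells carried the markers of their line. All 6 epithelial markers examined (EPCAM, CDH1, KRT7, KRT8, KRT18 and KRT19) and all 3 genes known to be high in A549 cells (AKR1B10, AKR1C1 and ALDH1A1) were well above background on each array. Of 6 markers of leukocytes, endothelium, fibroblasts and smooth muscle, 4 had a probe well above background in control cells, 3 with cordycepin and 2 with cordyceps. The lowest signal well above background was 18.6, 21.8 and 34.5 in that order. The counts therefore do not compare levels between arrays. PTPRC and COL1A1 had a probe well above background on all 3 arrays, CDH5 in control cells and with cordycepin, and PECAM1 in control cells alone. COL3A1 and MYH11 were not well above background on any array. The summed signal of these 6 markers over 13 probes, before scaling, was 606 in control cells, 473 with cordycepin and 460 with cordyceps. The summed signal of the 6 probes of the A549 genes, also before scaling, was 777436 in control cells, 438930 with cordycepin and 520300 with cordyceps. Such sums add signals of different probes and are not levels of RNA. After scaling, the median log2 ratios of the 3 genes were -0.68 with cordycepin and -0.51 with cordyceps, with 0 called. The 6 epithelial genes had median log2 ratios of 0.18 with cordycepin and -0.49 with cordyceps. By the brightest probe, EPCAM was called 2.85-fold lower with cordycepin and KRT19 2.37-fold lower with cordyceps, and a dimmer KRT8 probe was called 2.04-fold higher with cordycepin. The part of these markers in the values of the cascade was not tested.

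**Figure D1:**
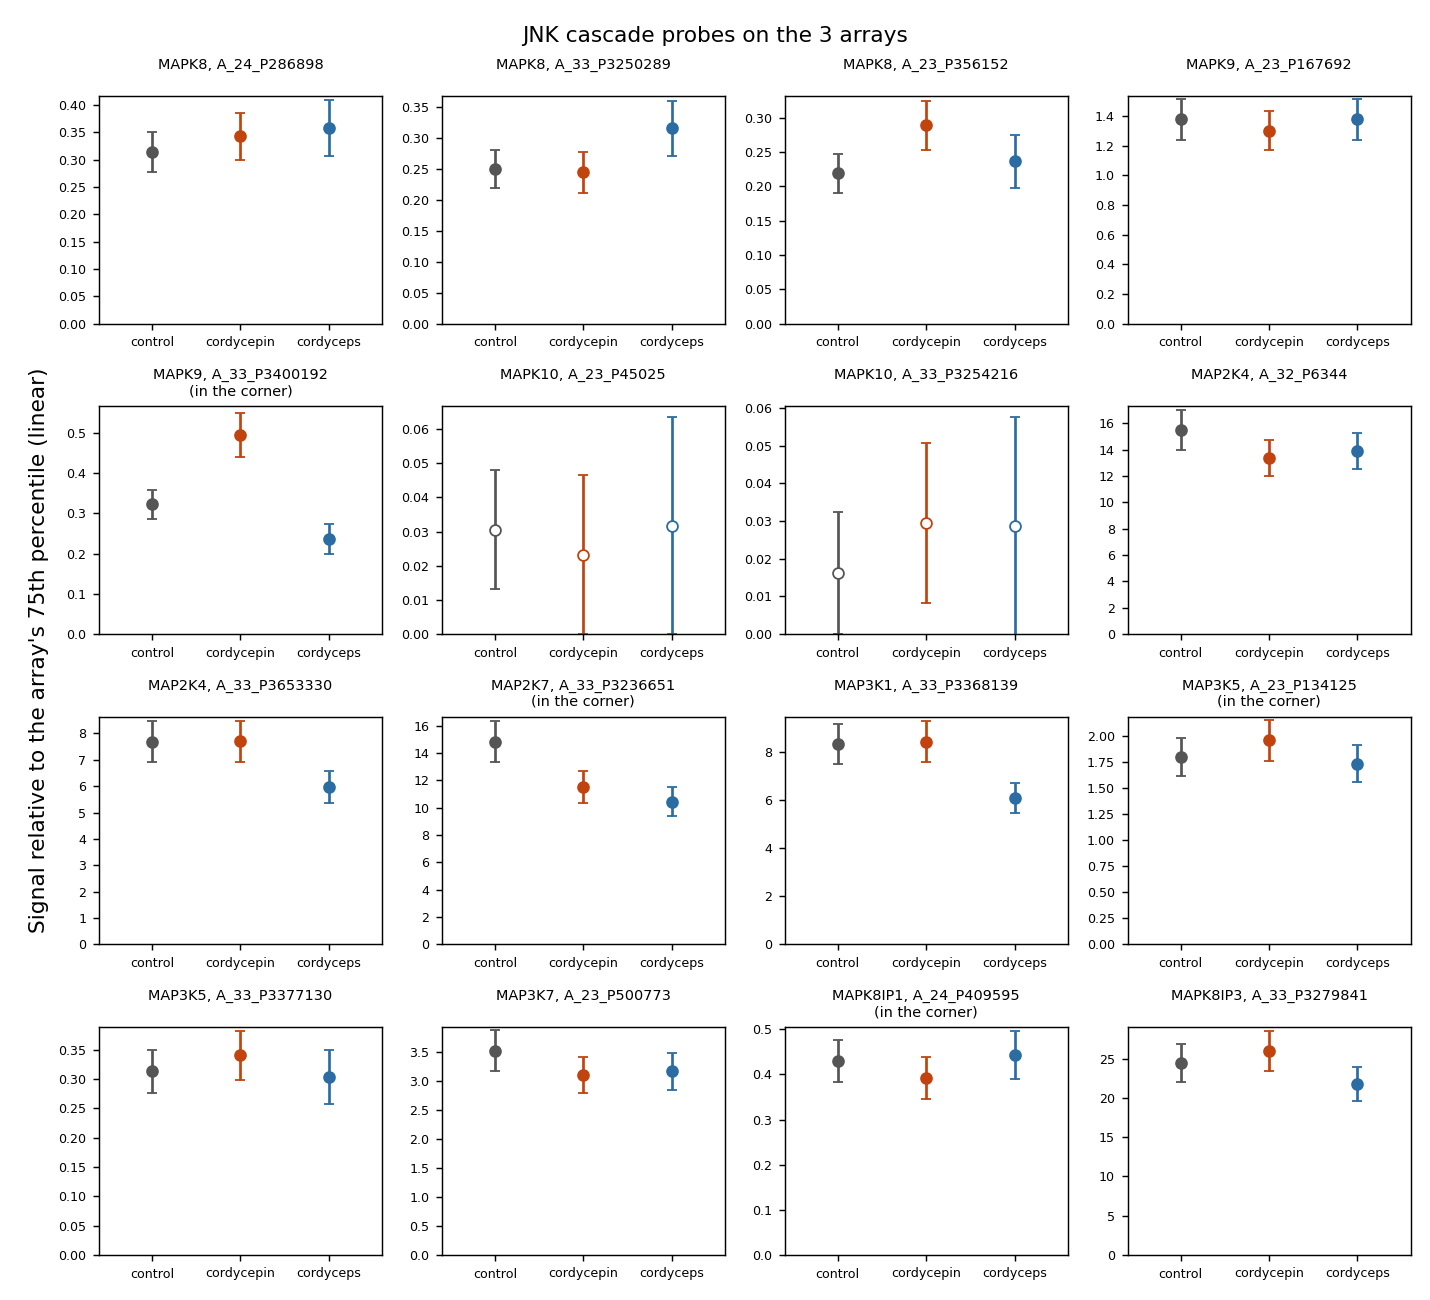
Signal of each of the 16 probes on the 3 arrays (1 array per condition), relative to the array's 75th percentile on a linear axis that starts at 0. Bars are the error of the scanner software, filled points are well above background and open points are not. The open points are those of MAPK10 alone, and each panel has its own scale because signals of different probes are not comparable.

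MAPK8 and MAPK9 encode JNK1 and JNK2, which most tissues express, while MAPK10 encodes JNK3, known mainly from brain, heart and testis. In these cells MAPK8 and MAPK9 were measured on every array and MAPK10 on none. RefSeq promoter windows of GRCh38.p14, each 300 bases from 250 before to 50 after a start site, were found for 8 of the 10 genes. MAP3K1 and MAPK8IP1 had none. The first listed window of each JNK gene is shown, 5′ to 3′ on the strand of the gene, because they differ in CpG content, and that of MAPK8IP3 because it shares a site with MAPK10. The windows lie at chr10:48306427-48306726 (plus strand) for MAPK8, chr5:180292034-180292333 (minus strand) for MAPK9, chr4:86360004-86360303 (minus strand) for MAPK10 and chr16:1705945-1706244 (plus strand) for MAPK8IP3. Capitals mark TGACGTCA, the cyclic AMP response element that ATF2 and JUN dimers are known to bind.
MAPK8: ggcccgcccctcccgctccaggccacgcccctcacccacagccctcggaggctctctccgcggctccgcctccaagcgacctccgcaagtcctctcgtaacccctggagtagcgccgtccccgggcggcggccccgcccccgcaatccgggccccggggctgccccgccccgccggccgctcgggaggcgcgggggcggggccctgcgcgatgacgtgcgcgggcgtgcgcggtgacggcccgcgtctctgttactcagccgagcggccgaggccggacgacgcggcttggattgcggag
MAPK9: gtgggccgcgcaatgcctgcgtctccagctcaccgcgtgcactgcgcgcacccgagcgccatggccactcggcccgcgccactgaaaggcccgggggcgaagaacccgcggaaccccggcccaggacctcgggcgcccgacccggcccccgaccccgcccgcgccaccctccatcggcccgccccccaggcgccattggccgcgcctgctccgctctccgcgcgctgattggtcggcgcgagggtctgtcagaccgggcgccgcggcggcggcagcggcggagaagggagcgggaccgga
MAPK10: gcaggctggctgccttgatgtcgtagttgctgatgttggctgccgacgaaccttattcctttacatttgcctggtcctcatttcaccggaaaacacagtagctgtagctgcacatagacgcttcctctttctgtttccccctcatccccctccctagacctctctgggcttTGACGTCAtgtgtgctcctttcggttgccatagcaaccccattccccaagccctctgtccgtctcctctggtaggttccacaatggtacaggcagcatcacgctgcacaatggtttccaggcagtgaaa
MAPK8IP3: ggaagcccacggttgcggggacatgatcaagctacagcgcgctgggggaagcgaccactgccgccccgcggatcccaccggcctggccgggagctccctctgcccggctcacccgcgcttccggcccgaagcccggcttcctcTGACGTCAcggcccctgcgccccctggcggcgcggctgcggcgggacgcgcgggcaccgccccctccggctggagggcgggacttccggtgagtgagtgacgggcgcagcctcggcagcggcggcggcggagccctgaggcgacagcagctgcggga

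The MAPK8 window held 46 CpG dinucleotides and the first MAPK9 window 47, whereas the 3 MAPK10 windows held 9, 1 and 0. Over all 35116 windows of that length the median was 14. The other MAPK9 windows held 15 and 6. Those of MAP2K4, MAP2K7 and MAPK8IP3 held 38, 47 and 40, that of MAP3K7 held 22, and the pair of MAP3K5 windows held 22 and 40. The letters TGACGTCA, searched on both strands, stood in 1 MAPK10 window, beginning 79 bases before the start site, and in the MAPK8IP3 window, beginning 107 bases before it. They were in 1.85% of all windows. The AP-1 letters TGANTCA, also searched on both strands, were in 1 of the 13 windows of the cascade, another of MAPK10, and in 7.71% of all windows. These are matches of letters in windows fixed by the annotation. Neither factor binding nor methylation was measured in these cells.

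The 3 probes of MAPK8, which encodes JNK1, were all under 1.5-fold with both treatments. Where a pair of ratios is given from here on, the first is cordycepin over control and the second cordyceps over control. Its probe A_24_P286898 gave signals of 81.8 in control cells, 76.8 with cordycepin and 93.3 with cordyceps. Its log2 ratio was 0.12 with cordycepin and 0.19 with cordyceps, both within the scanner errors of 0.25 and 0.27. Probe A_33_P3250289 gave 65.2, 54.9 and 82.4 on the control, cordycepin and cordyceps arrays, for log2 ratios of -0.03 and 0.34. Probe A_23_P356152 gave 56.9, 64.7 and 61.5 in the same order, for log2 ratios of 0.40 and 0.11. The probe with the largest ratio was thus a different one in each treatment. The log2 ratios of the 3 probes spanned 0.44 with cordycepin and 0.22 with cordyceps. For comparison, signals counted as well above background began at 18.6 for control, 21.8 for cordycepin and 34.5 for cordyceps.

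MAPK9, which encodes JNK2, was read by a probe with ratios near 0 and by another, in the corner, with a ratio above 0 with cordycepin and below 0 with cordyceps. Probe A_23_P167692 gave signals of 358, 292 and 358 on the control, cordycepin and cordyceps arrays. Its log2 ratio was -0.08 with cordycepin and -0.0012 with cordyceps. The corner probe A_33_P3400192, annotated to another transcript variant, gave 84.1 in control cells, 111 with cordycepin and 61.4 with cordyceps. That is a log2 ratio of 0.61 with cordycepin, or 1.53-fold, and of -0.45 with cordyceps. It was the largest ratio of the cascade with cordycepin and the one that exceeded 2 scanner errors. The probes of MAPK9 disagreed by 0.70 with cordycepin, which 13.5% of the pairs of probes matched or passed, and by 0.45 with cordyceps, as 21.3% did. For such a dim probe the spread between probes of one gene was 0.35 and 0.32, so neither ratio stood clear of it by more than 2 SD.

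MAPK10 was not well above background with either of its probes. Its probe A_23_P45025 gave signals of 7.95, 5.21 and 8.24 on the control, cordycepin and cordyceps arrays, and A_33_P3254216 gave 4.20, 6.58 and 7.47. All 6 values lay under the lowest signal well above background on their array, and no ratio is given for them.

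The MAP2K tier holds the kinases that phosphorylate JNK directly. MAP2K4, which also acts on p38, was read by probe A_32_P6344 at signals of 4032 in control cells, 3002 with cordycepin and 3622 with cordyceps. Its log2 ratios were -0.21 with cordycepin and -0.16 with cordyceps. The other probe, A_33_P3653330, gave 2000, 1728 and 1553 in the same order, for log2 ratios of 0.0031 and -0.37. With each treatment 1 of the MAP2K4 probes stayed closer to the control than the other, and it was not the same probe. MAP2K7, which is dedicated to JNK, had a single probe, in the corner, with signals of 3853, 2578 and 2717. It gave the lowest ratio of the cascade with both treatments, a log2 ratio of -0.37 or 0.776-fold with cordycepin and of -0.50 or 0.705-fold with cordyceps. Set against the median of all probes measured, these were -0.34 and -0.38. The values exceeded the robust SD of 0.15 and 0.13 found for bright pairs of probes. The plain SD of those pairs was larger, at 0.25 and 0.19. With cordyceps the log2 ratio of -0.50 exceeded 2 scanner errors, at 0.20 each. The value of -0.38 set against the median did not, nor did the value of -0.23 under median scaling. There is no second MAP2K7 probe and no replicate array.

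The MAP3K tier receives the stress signal. MAP3K1, also known as MEKK1, gave signals of 2171 in control cells, 1896 with cordycepin and 1590 with cordyceps from its single probe. Its log2 ratio was 0.02 with cordycepin and -0.45 with cordyceps, or -0.33 relative to the median of all probes. The value of -0.45 exceeded 2 scanner errors, at 0.20 each, and the value of -0.33 did not. MAP3K5, or ASK1, which thioredoxin holds inactive until oxidative stress releases it, was read by a pair of probes that agreed closely. The brighter one, in the corner, gave 469, 440.0 and 452 on the control, cordycepin and cordyceps arrays, and the other gave 81.6, 76.3 and 79.2. Their log2 ratios were both 0.12 with cordycepin, and -0.05 and -0.04 with cordyceps. They differed by 0.0028 and 0.011, less than 99.3% and 96.7% of the pairs of probes. MAP3K7, or TAK1, which relays interleukin-1, TNF and TGF-beta signals, gave 916, 697 and 824 in the same order, for log2 ratios of -0.18 and -0.15.

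The JIP scaffolds bind JNK, a MAP2K and a MAP3K at once. MAPK8IP1, or JIP1, had a single dim probe, in the corner, with signals of 112 in control cells, 87.9 with cordycepin and 115 with cordyceps. Its log2 ratio was -0.13 with cordycepin and 0.04 with cordyceps, within the scanner error of 0.23 and 0.24. MAPK8IP3, or JIP3, also a motor adaptor in axons, gave 6366, 5828 and 5668 from its single probe. That is a log2 ratio of 0.09 with cordycepin and -0.17 with cordyceps, less than the scanner error of 0.20 in each case.

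**Figure D2:**
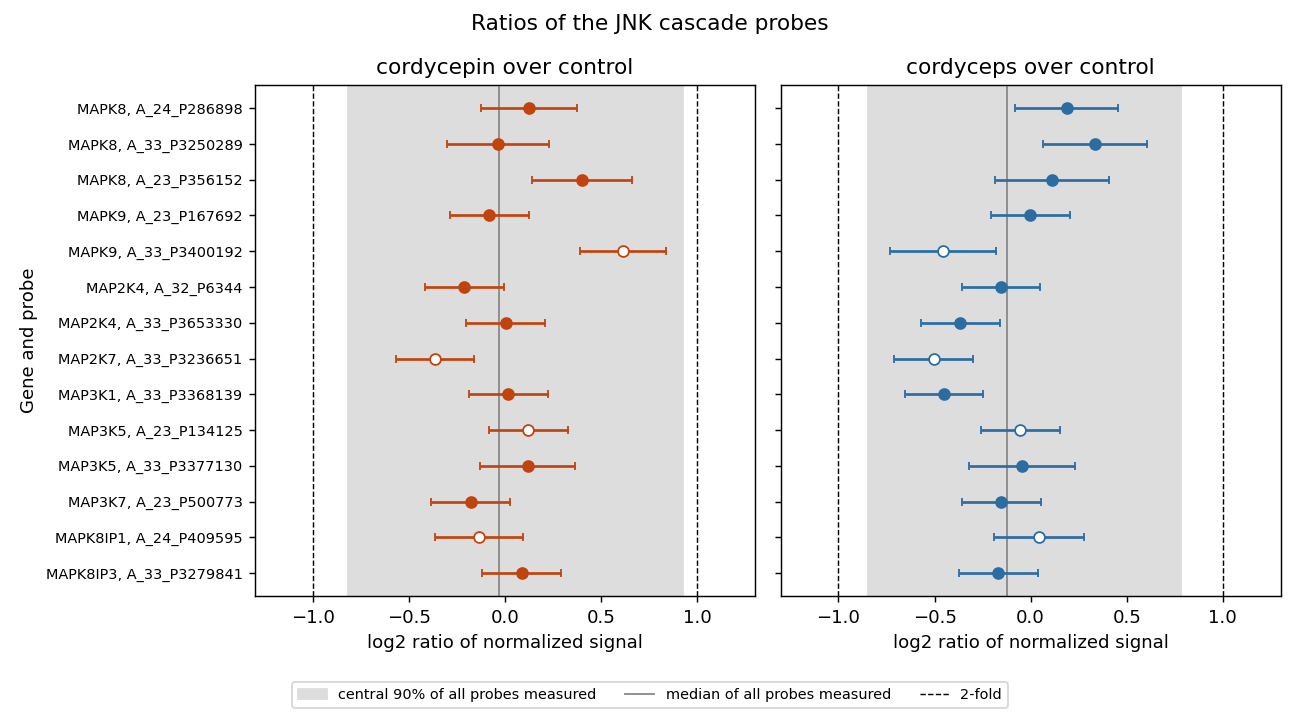
Log2 ratio of cordycepin over control (left) and cordyceps over control (right) for the 14 probes well above background on all 3 arrays, with bars for 1 scanner error and open points for probes in the corner. The grey band is the central 90% of all probes measured on both arrays, the grey line their median and the dashed lines 2-fold. All 14 probes lie inside the band and the dashed lines in both comparisons.

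By the brightest probe of each gene, the 9 genes measured had a median log2 ratio of -0.08 with cordycepin and -0.15 with cordyceps. All named genes measured on both arrays had medians of -0.05 and -0.11. With cordycepin 4 of the 9 genes lay above 0 and 5 below, and with cordyceps 2 lay above and 7 below. Of the 14 probes, 11 lay within 1 SD of 0 with cordycepin, where the SD of a single probe was 0.25. With cordyceps, where it was 0.20, 9 did. Of all probes measured on both arrays, 11124 of 25996 did so with cordycepin and 8627 of 23740 with cordyceps. The same SD was used for bright and dim probes. Both comparisons use the same control array and the doses differ, so the values are given side by side and not compared. Without the 4 corner probes the range of the other 10 was -0.21 to 0.40 with cordycepin and -0.45 to 0.34 with cordyceps. The brightest probes of MAP2K4, MAP2K7 and MAP3K7 were below 0 with cordycepin under all ways of processing that gave them a value. So were MAP2K7 and MAP3K1 with cordyceps, while MAPK8 and MAPK8IP1 were above 0 there. The other 11 of the 18 gene values changed sign under at least 1 way of processing.

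**Figure D3:**
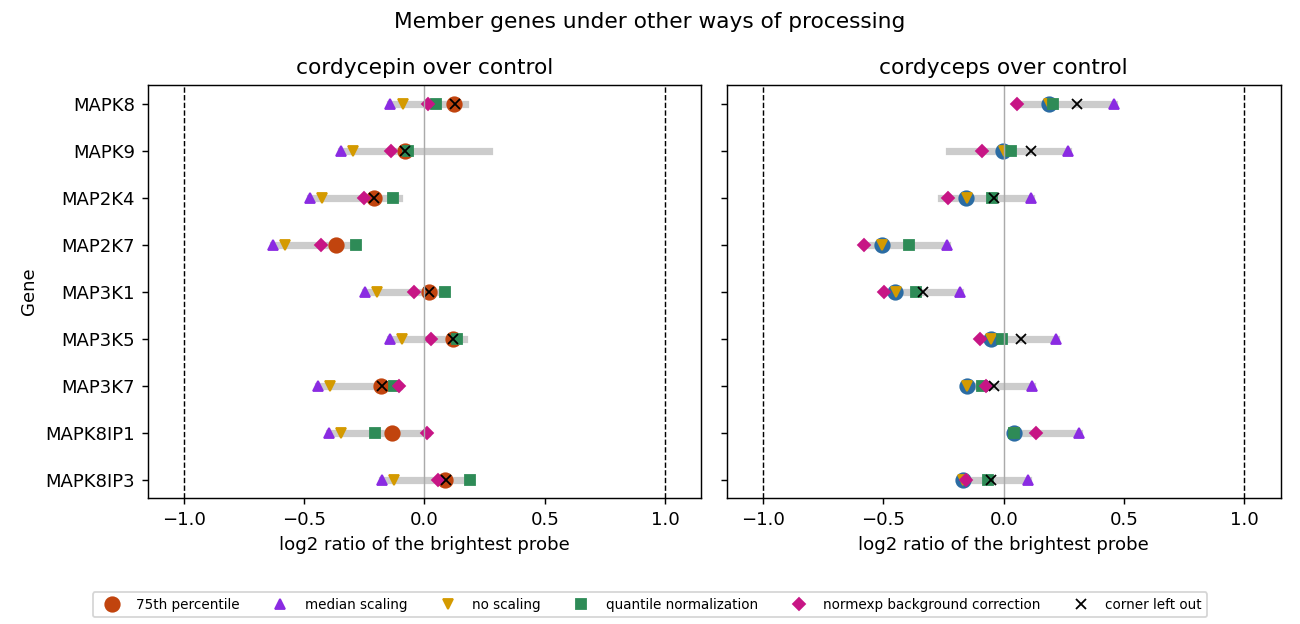
Log2 ratio of the brightest probe of each of the 9 measured genes, cordycepin over control (left) and cordyceps over control (right). Large points are values as reported, other symbols other ways of processing and grey bars the range over all of them, some of which have no symbol, with dashed lines at 2-fold. Every symbol lies between the dashed lines and the largest value, regardless of sign, was 0.63.

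Around the core cascade, other genes of the pathway included some past 2-fold. In 8 lists, 64 genes in all, 3 were called higher and 0 lower with cordycepin by their brightest probe, among 61 measured on at least 1 array. With cordyceps 4 were called higher and 0 lower among 63. Of these, MAP4K1, SH3RF3 and ATF2 were called from corner probes, and GADD45A alone was called from outside the corner. Over all named genes 9.52% were called with cordycepin and 7.35% with cordyceps. By direction, 5.95% were higher and 3.57% lower with cordycepin, and 4.19% higher and 3.15% lower with cordyceps. The lists were chosen with earlier results of these data known, so the shares beside them are no test.

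Among 9 phosphatases and inhibitors that can act on the cascade, DUSP5 and DUSP10 were called higher with cordycepin. DUSP5, a nuclear dual-specificity phosphatase best known for acting on ERK, gave signals of 3372 in control cells, 6922 with cordycepin and 3397 with cordyceps. It was 2.38-fold higher with cordycepin and 1.01-fold with cordyceps. DUSP10, which acts on JNK and p38, gave 125, 218 and 112, just past the threshold at 2.02-fold with cordycepin, and 0.894-fold with cordyceps. With median scaling DUSP5 came to a log2 ratio of 0.99 and DUSP10 to 0.75 with cordycepin, both under 2-fold, and DUSP10 was also under it with quantile normalization (0.99), with no scaling (0.80) and with normexp (0.70). DUSP1, the immediate-early phosphatase of JNK and p38, gave signals of 11882, 11552 and 12285 and log2 ratios of 0.17 and 0.05. Some spots of its probe lie in the corner, and with the corner left out the log2 ratios were 0.17 and 0.18. GSTP1, which binds and inhibits JNK, gave 161899, 154240 and 133578, for log2 ratios of 0.14 and -0.28. The list had a median log2 ratio of 0.16 with cordycepin and -0.16 with cordyceps.

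The 3 GADD45 genes encode stress-induced proteins that bind and activate MAP3K4. GADD45A gave signals of 1868 in control cells, 3096 with cordycepin and 4733 with cordyceps. It was 1.92-fold higher with cordycepin, short of the threshold, and was called with cordyceps at 2.53-fold. Both treated arrays were above the control array. Over the ways of processing its log2 ratio ran from 0.68 to 1.01 with cordycepin, past 2-fold under quantile normalization alone, and from 1.34 to 1.61 with cordyceps. GADD45B, with signals of 6414, 5316 and 6697, gave log2 ratios of -0.06 and 0.06.

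Of 12 other scaffolds and adaptors, SH3RF2 was called higher with cordycepin. It is a RING protein related to the JNK scaffold SH3RF1, and its signals were 79.2 in control cells, 161 with cordycepin and 101 with cordyceps, or 2.35-fold with cordycepin and 1.28-fold with cordyceps. With median scaling it was under 2-fold, at a log2 ratio of 0.97, and with normexp it was 0.74. SH3RF1 itself gave 1091, 1169 and 1220, for log2 ratios of 0.31 and 0.16 from a corner probe. TRAF2, which couples TNF receptors to the MAP3K tier, gave 12254, 12978 and 11935, for log2 ratios of 0.30 and -0.04, also from a corner probe. SH3RF3 was called with cordyceps as at least 3.57-fold higher, from signals of 4.17, 4.94 and 66.5 of which the last alone was well above background. Both SH3RF3 probes lie in the corner, the other was not well above background on any array, and with normexp the log2 ratio was 0.74. FLNA, named here after its values were seen, had a dimmer probe 2.88-fold higher with cordycepin while its brightest probe had a log2 ratio of -0.40.

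None of the 14 other MAP3K and TAOK kinases was called by its brightest probe with either treatment. MAP3K11, or MLK3, gave signals of 11006 in control cells, 8739.5 with cordycepin and 7929.6 with cordyceps, for log2 ratios of -0.12 and -0.47 from a probe in the corner. The list had medians of -0.07 with cordycepin and -0.19 with cordyceps. The second probes of MAP3K6 and TAOK2, named after their values were seen, were called lower with both treatments. With cordycepin the MAP3K6 probe, in the corner, was 3.30-fold lower and the TAOK2 probe at least 2.67-fold lower, while the brightest probes gave log2 ratios of -0.20 and -0.36. With normexp these second probes came to -0.85 and -0.45, under 2-fold. Among the 7 MAP4K genes MAP4K1, a kinase of blood cells, was called with cordyceps as at least 10.7-fold higher. Its signals were 16.6 in control cells, 16.8 with cordycepin and 200 with cordyceps, and its single probe lies in the corner. With normexp the log2 ratio was 1.58. The brightest probe of PTPRC, a leukocyte marker, gave 99.5, 71.8 and 72.9, and its part in the MAP4K1 value was not tested. MAP4K5 gave 1018, 701 and 1094, for log2 ratios of -0.32 and 0.10.

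Among 5 substrates of JNK, ATF2 was called with cordyceps at 3.55-fold, again from a probe in the corner, with signals of 274 in control cells, 335 with cordycepin and 973 with cordyceps. The other ATF2 probe, outside the corner, gave 177, 147 and 197, a log2 ratio of 0.16 with cordyceps. With the corner left out, the calls with cordyceps that came from corner probes (MAP4K1, SH3RF3 and the brightest ATF2 probe) have no value, and GADD45A remained at a log2 ratio of 1.45. JUN, the substrate that gave the kinase its name, had signals of 383, 367 and 520 on the control, cordycepin and cordyceps arrays. Its log2 ratios were 0.15 and 0.44.

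**Figure D4:**
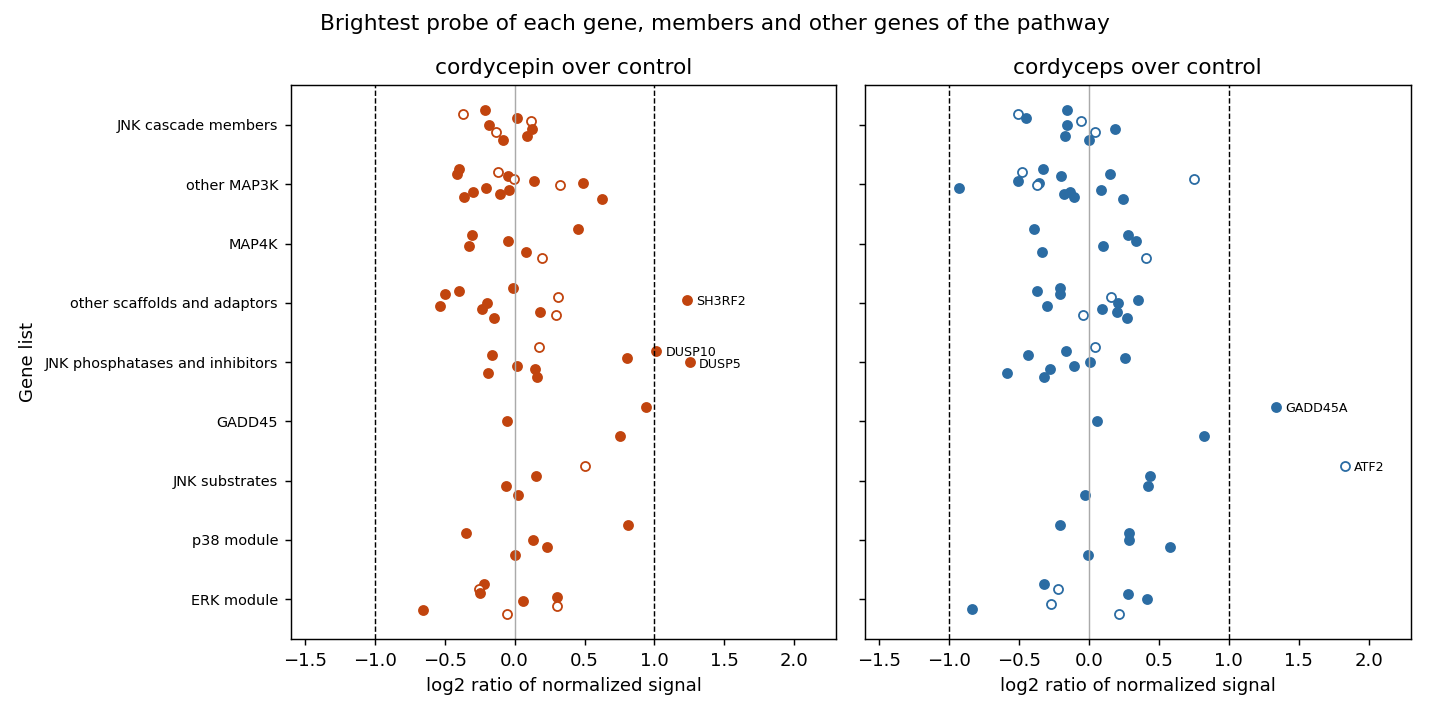
Log2 ratio of the brightest probe of each gene, cordycepin over control (left) and cordyceps over control (right), for the cascade and 8 lists of other pathway genes well above background on both arrays of a comparison. Open points are probes in the corner and dashed lines are 2-fold. The cascade genes lie between -0.50 and 0.19, while DUSP5, DUSP10 and SH3RF2 with cordycepin and GADD45A and ATF2 with cordyceps lie past 2-fold. MAP4K1 and SH3RF3 with cordyceps, which have bounds and no ratio, are not drawn.

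The parallel MAP kinase chains were read beside the JNK cascade. Of 6 genes of the p38 chain, 5 were measured and 0 were called with either treatment, with median log2 ratios of 0.13 with cordycepin and 0.29 with cordyceps. MAP2K3, which activates p38, gave signals of 8514 in control cells, 12880 with cordycepin and 7405 with cordyceps, for log2 ratios of 0.81 and -0.20. Its dimmer probes gave log2 ratios of 0.95 and 0.19 with cordycepin, and of -0.17 and 0.09 with cordyceps. Of 8 genes of the ERK chain, 0 were called, with median log2 ratios of -0.14 with cordycepin and -0.22 with cordyceps. The brightest probes of 3 of these 8 genes lie in the corner, and 0 of the p38 chain do. Outside the corner the ERK medians were -0.22 over 5 genes with cordycepin and -0.02 over 4 with cordyceps. MAP2K2 gave 3180, 2855 and 4246, for log2 ratios of 0.06 and 0.42. With 1 array per condition the differences between the chains could not be tested.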

How the data were processed

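RNA from A549 cells was hybridized to 1 Agilent array per condition with a single Cy3 channel. The authors deposited the intensity of each spot from Agilent Feature Extraction 11.5.1.1, background-subtracted and detrended within the array and not scaled between arrays. The authors also deposited a value table, whose values lay within 0.1% of the mean processed signal for 58130, 58149 and 58161 of the 58201 probes of the control, cordycepin and cordyceps arrays. The paper's methods name GeneSpring for normalization and describe a second dye, for which the files hold no channel.

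Outlying spots (106, 80 and 63) and controls were left out, no spot was saturated, spots of a probe were averaged as log2 intensity, and the 75th percentile of each array was subtracted. A probe was measured where the scanner software marked 50% or more of its spots as well above background (28494, 27666 and 24505 probes). Where 1 array of a comparison measured it, the ratio was a bound against the higher of the dim value and the lowest signal well above background. Accessions were matched without versions to RefSeq transcripts of GRCh38.p14 for 31097 probes. The array design uses another build, so no position of a probe is given. The probe with the highest mean log2 signal over the arrays stood for its gene.

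With 1 array per condition no test was run. The number of arrays limits the precision. The members and lists were chosen with earlier results of these data known. Genes named beyond the members are those called in a list, the brightest in control cells of each list, and JUN, DUSP1, DUSP5, GADD45A and GADD45B. Brightness only selects these genes and orders no levels. Outside this rule stand the listed cell type markers, SH3RF1, and the dimmer probes of FLNA, MAP2K3, MAP3K6, TAOK2, ATF2, SH3RF3 and KRT8. SH3RF1 and these dimmer probes were chosen after their values were seen. Alternatives were scaling by the median or by the 75th percentile of probes measured on all arrays, quantile normalization, no scaling, normexp with an offset of 50 on the median spot and local background signals, the value table, outlying spots kept, the corner left out, other detection rules, 1.5-fold and 3-fold thresholds, counting by gene, and the median over the probes of a gene. The calling step was run on simulated arrays with known changes in bright probes. That checks the code and not the accuracy of calls on these arrays, and bounds were not simulated. Python 3.11.15, numpy 2.4.6, pandas 2.3.3, R 4.3.3 and limma 3.58.1 were used.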

Additional observations from a re-analysis of the deposited data

How the results depend on the processing

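The count of member probes called was 0 for both treatments under all alternatives tried except 1: at a threshold of 1.5-fold, 1 probe was called with cordycepin, the corner probe of MAPK9, where 22.7% of all probes measured on both arrays were called, and 0 with cordyceps. The median log2 ratio of the member genes moved with median scaling, to -0.35 with cordycepin from -0.08 and to 0.12 with cordyceps from -0.15. Median scaling shifts all ratios of a pair of arrays together, and it moved the median of all probes from -0.03 to -0.29 with cordycepin and from -0.12 to 0.15 with cordyceps. The median of the members moved by less than the spread of a single probe under the other alternatives. Of 158 alternative values of single member genes, 20 moved by more than that spread and 0 reached 2-fold. With the corner left out, MAP2K7 and MAPK8IP1 have no value. No paired analysis was possible because there is 1 array per condition, and for the same reason no array could be left out. Dim probes, MAPK8 among them, are the least precise here, and no difference in MAPK10 was detectable at its signal.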
